A study of Mus musculus with 2 samples.

Results

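The cells described here are the Trdc-positive gamma-delta T cells of the mouse liver, chosen from raw counts of unique molecular identifiers (UMIs, each 1 captured RNA molecule). A barcode was a member when it held at least 200 genes and at most 20% mitochondrial UMIs, at least 2 UMIs of Cd3d, Cd3e and Cd3g together, at least 1 UMI of Trdc, and no UMI of Cd4, Cd8a, Cd8b1, Csf1r, Cd79a or Siglech. The rule selected 116 of 25424 kept barcodes. The control library gave 76 members of 8086 kept barcodes, and the library from livers with MC38 tumor gave 40 of 17338. Because measured values of these genes chose the members, their levels are given below as a description, and none of them supports a result.

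A gamma-delta T cell reads antigen with a receptor built from a gamma and a delta chain, in place of the alpha and beta chains of CD4 and CD8 T cells, and uses the same CD3 signaling chains. Most gamma-delta T cells lack CD4 and CD8 and act early, without prior priming, and many settle in a tissue and stay there. In the mouse they leave the thymus already committed to one of a pair of effector programs: a type 1 program, with interferon gamma, CD27 and NK receptors, or a type 17 program, with interleukin 17 and no CD27. Both kinds are known in the liver.

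All mice were C57BL/6, and each library pooled mononuclear cells of 3 livers taken on day 14 after an injection into the spleen. Control mice were injected with PBS and are labelled as having no tumor. The other mice received 500000 MC38 cells, a mouse colon adenocarcinoma line that seeds the liver from the spleen, and the spleen was removed at once. The protocol text is the same for both samples and also gives 3000000 MC38 cells under the skin, so whether control mice carried a subcutaneous tumor, or kept the spleen, is not stated. Hepatocytes were depleted by slow spins before a density gradient. With 1 pooled library per group the spread between mice is not seen, no test between groups was possible, and every interval below covers counting error only.

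The libraries held 14258 and 19822 barcodes and 91617457 and 114421875 UMIs, the control first here and in every pair of values that follows. Members were of like depth, with a lowest, median and highest of 1063, 5873 and 27665 UMIs in the control and 2474, 5400.5 and 20253 with MC38. Their summed UMIs were 494679 and 249261, and levels are given as CPM, the UMIs of a gene per 1000000 UMIs of the summed cells. Mitochondrial UMIs stood at a median of 12.5% of a member's UMIs in the control and 7.10% with MC38. A doublet caller marked 1 of 76 and 4 of 40 members, and of 63 barcodes present in both libraries 1 was a member in either and 0 in both. Reference sets from the same libraries recur below: alpha-beta T cells with CD4 or CD8 and no Trdc UMI (976 and 355, median depths 6451.5 and 5482), NK cells with an Ncr1 UMI and no CD3 UMI (428 and 226, 4368.5 and 4340), and B cells with at least 2 Cd79a UMIs and no CD3 UMI (1000 and 2283, 3891.5 and 3155).

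The label was checked on receptor genes that the rule did not use. A gamma constant UMI (Tcrg-C1, Tcrg-C2, Tcrg-C3 or Tcrg-C4) was present in 65 of 76 control members (85.5%, exact binomial 95% interval 75.6 to 92.5) and in 35 of 40 MC38 members (87.5%, 73.2 to 95.8). The same share was 24.6% and 19.4% in alpha-beta T cells, 15.7% and 14.2% in NK cells, 51.3% and 31.7% in the 1031 and 243 T cells without CD4, CD8 or Trdc UMIs (coreceptor-negative cells below), and 1.80% and 0.394% in B cells, which have no use for the gene and so give the level of free RNA. Trac, the alpha constant gene, was found in 22.4% and 20.0% of members against 79.5% and 75.5% of alpha-beta T cells, 72.1% and 56.0% of coreceptor-negative cells, 2.80% and 3.10% of NK cells and 1.10% and 0.263% of B cells. The members' Trac share thus lay between those of NK cells and of alpha-beta T cells. Beta constant UMIs (Trbc1 or Trbc2) did not separate the lineages: 93.4% and 87.5% of members held them, as did 78.7% and 78.8% of NK cells. By gamma constant genes most members matched the label, while 11 control and 5 MC38 members had no gamma constant UMI, and 17 and 8 members held a Trac UMI.

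**Figure D1:**
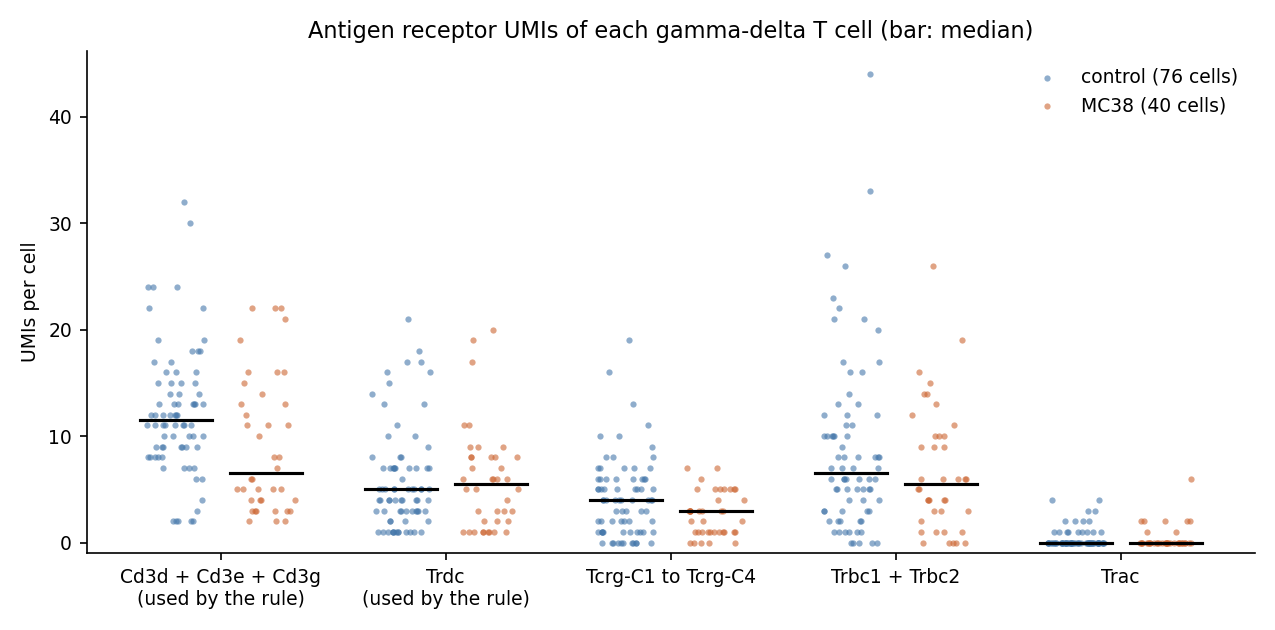
UMIs per member of the CD3 genes, Trdc, the gamma constant genes, Trac and the beta constant genes, 1 point per cell, with control and MC38 members side by side and a bar at the median. Trdc and CD3 are the genes of the rule, and gamma constant medians were 4 UMIs in the control and 3 with MC38 while the Trac median was 0 in both.

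Among the genes of the rule, Trdc (chr14:54142851-54148868, plus strand, GRCm38) had a lowest, median and highest of 1, 5 and 21 UMIs in control members and 1, 5.5 and 20 in MC38 members, and summed to 902 and 943 CPM. The CD3 genes reached 2, 11.5 and 32 UMIs against 2, 6.5 and 22. Gamma constant UMIs, outside the rule, ran over 0, 4 and 19 against 0, 3 and 7, so the MC38 members lacked the high end. Tcrg-C4 (chr13:19344558-19352756, plus strand) was read in 52 control and 26 MC38 members with 299 and 245 CPM. Tcrg-C2 (chr13:19304649-19307551, minus strand) was read in 44 and 17 members with 206 and 92.3 CPM, a log2 fold of -1.16 for MC38 over control (-1.88 to -0.50). Tcrg-C1 (chr13:19214103-19217024, plus strand) was read in 36 and 17 members with 139 and 92.3 CPM (log2 fold -0.60, -1.34 to 0.10), and Tcrg-C3 gave a single UMI in the control. Of the 4 constant genes of the gamma and delta chains with at least 10 UMIs, Tcrg-C2 alone was more than 2-fold apart.

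How far these copies can be told apart depends on their sequence, which is why the first 150 bases of exon 1 are shown for the 3 genes with counts (GENCODE M21, GRCm38, coding strand, 5′ to 3′). Capitals mark bases that differ from Tcrg-C1. Tcrg-C1 lies at chr13:19214103-19214252 on the plus strand, Tcrg-C2 at chr13:19307402-19307551 on the minus strand and Tcrg-C4 at chr13:19344558-19344707 on the plus strand.
Tcrg-C1: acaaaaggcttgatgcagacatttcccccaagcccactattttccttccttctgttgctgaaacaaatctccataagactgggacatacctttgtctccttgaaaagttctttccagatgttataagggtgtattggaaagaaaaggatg
Tcrg-C2: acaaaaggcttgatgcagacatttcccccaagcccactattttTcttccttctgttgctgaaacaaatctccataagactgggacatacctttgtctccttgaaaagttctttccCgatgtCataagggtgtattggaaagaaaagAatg
Tcrg-C4: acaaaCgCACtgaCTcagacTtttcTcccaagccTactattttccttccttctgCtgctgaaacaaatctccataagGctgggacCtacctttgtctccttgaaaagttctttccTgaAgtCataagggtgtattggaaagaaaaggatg
Over the 330 bases of the whole exon, Tcrg-C2 was 97.3% identical to Tcrg-C1, with 9 differing bases, Tcrg-C3 96.1% with 13 and Tcrg-C4 82.1% with 59. In the stretch shown, Tcrg-C2 differs at 4 positions and Tcrg-C4 at 15. Reads of Tcrg-C1, Tcrg-C2 and Tcrg-C3 may thus be split or dropped between copies, and their separate levels are uncertain, while Tcrg-C4 stands well apart.

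Variable segments, which name the subset of a gamma-delta T cell, were read in only some of the members. Any gamma or delta V segment was found in 39 control members (51.3%) and 12 MC38 members (30%), against 7.79% and 9.01% of alpha-beta T cells. Coreceptor-negative cells stood at 15.9% and 11.1%. Trgv2 (chr13:19336573-19337167, minus strand) led, with 48 UMIs in 31 of 76 control members and 11 UMIs in 9 of 40 MC38 members. Tcrg-V4 gave 3 and 3 UMIs, Trdv2-2 gave 7 and 1, Trdv4 gave 3 and 1, and Tcrg-V6 gave none in either library. Trgv2 is close in sequence to Tcrg-V1 (95.2% over 374 aligned bases) and to Tcrg-V3 (94.5% over 347), and Tcrg-V1 is not among the genes counted, so the Trgv2 reads cannot be assigned to a single segment. V reads were scarce in general: alpha-beta T cells held 1.66 and 1.60 V UMIs per 100 constant UMIs, and members 8.88 and 4.97.

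Control members with and without a Trgv2 UMI differed in other genes. The 31 with Trgv2 held Tcrg-C2 in 77.4% and Tcrg-C4 in 90.3% of cells, and the 45 without held them in 44.4% and 53.3%. Tcrg-C4 and Tcrg-C2 flank Trgv2 on chromosome 13. Xcl1, a chemokine that draws cross-presenting dendritic cells, stood at 225 CPM with Trgv2 and 1125 CPM without, and was read in 48.4% and 66.7% of these cells. All members with Trgv2 had at least 3 Trdc UMIs. The 28 members without Trgv2 that also had at least 3 held Tcrg-C2 in 53.6% and Tcrg-C4 in 64.3% of cells, with 1477 CPM of Xcl1. Both Xcl1 levels without Trgv2 include 1 cell that held 106 of the 380 Xcl1 UMIs of control members. In the MC38 library the 9 members with Trgv2 held Tcrg-C2 in 44.4% and Tcrg-C4 in 66.7% of cells against 41.9% and 64.5% of the 31 without, so the split by constant gene was not seen there.

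The edge of the rule passes through cells with mixed receptor reads. Members with exactly 1 Trdc UMI numbered 13 and 9, and 53.8% and 66.7% of them held a gamma constant UMI, against 93.2% and 96.4% of the 59 and 28 members with at least 3. Just outside, the 11 and 3 barcodes with a single CD3 UMI held gamma constant UMIs in 18.2% and 33.3%, while the 11 and 2 barcodes with a single CD4 or CD8 UMI held them in 90.9% and 50.0%. Trdc RNA is also made by NK cells, and 25.0% and 19.5% of the NK cells here held a Trdc UMI against 0.400% and 0.131% of B cells. Ncr1, which encodes the NK receptor NKp46, was found in 3.18% and 1.97% of alpha-beta T cells and in 13.4% and 18.9% of coreceptor-negative cells. Among members, 18 in the control (23.7%) and 12 with MC38 (30%) held it. All 30 of these members held Fcer1g, none held Cd5, and their Gzma level was 5460 and 4804 CPM against 851 and 1726 CPM in members without Ncr1. The part of these cells in the results below was not tested, and values for members with at least 3 Trdc UMIs are given where they differ.

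Gamma-delta T cells made up 0.940% of kept barcodes in the control (0.741 to 1.18) and 0.231% with MC38 (0.165 to 0.314), a ratio of 0.245 (0.163 to 0.365). All T-lineage barcodes were likewise a smaller share of the MC38 library, 26.7% against 3.77%. Within the T lineage the order was the other way: members were 76 of 2156 T-lineage barcodes in the control (3.53%, 2.79 to 4.39) and 40 of 654 with MC38 (6.12%, 4.41 to 8.24), a ratio of 1.74 (1.15 to 2.58). With every barcode thinned to 1000 UMIs before the rule was applied, the shares were 2.64% and 3.61%, a ratio of 1.37. Within bins of mitochondrial share the members were 2.66% and 4.11% of T-lineage barcodes at 5 to 10%, 3.75% and 10.2% at 10 to 15% and 3.73% and 5.26% at 15 to 20%, but 8.33% (4 of 48) and 7.75% (10 of 129) under 5%.

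Against alpha-beta T cells of the same library, the members were set apart by NK receptors, cytotoxic genes and chemokines. Of 8533 genes with enough UMIs, 77 (0.902%) were at least 2-fold higher in members in both libraries and 139 (1.63%) at least 2-fold lower, while the median gene differed by 0.06 and 0.00 on the log2 scale. Of the type 1 and cytotoxic list, 16 of 32 measured genes were higher in both libraries and none lower, with a median log2 fold of 1.38 in the control and 1.13 with MC38. Of the naive and central memory list, 4 of 11 were lower and none higher (medians -0.91 and -0.86). Of the type 17 list 0 of 12 were higher in both, and 1 was lower.

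**Figure D2:**
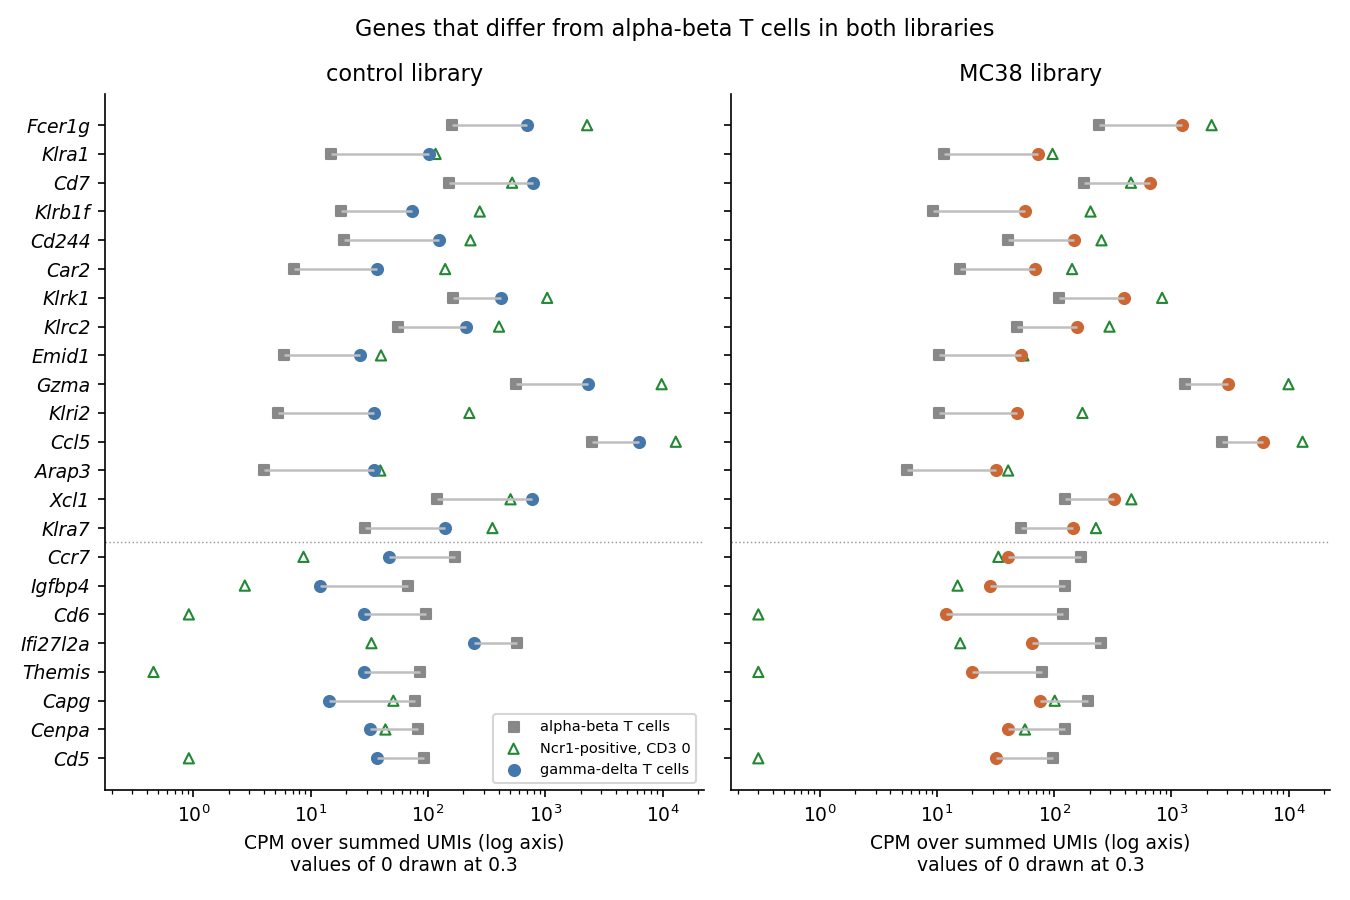
CPM on a log axis of the 23 genes named by rank, in members (circles), alpha-beta T cells (squares) and NK cells (triangles) of the control (left) and MC38 (right) library, with values of 0 drawn at 0.3. Members lie to the right of alpha-beta T cells for the 15 genes above the dotted line and to the left for the 8 below it.

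Fcer1g, the signaling adaptor of Fc and NK receptors that can also join CD3 complexes, was at 701 CPM in control members against 159 CPM in alpha-beta T cells, and at 1220 against 242 CPM with MC38 (log2 folds 2.14 and 2.33). Cd7, a surface glycoprotein of NK and T cells, was at 778 against 151 and 654 against 181 CPM (2.37 and 1.86). NK lectin receptors made up 6 of the 15 leading genes: Klra1 (2.77 and 2.64), Klrb1f (2.01 and 2.61), Klrc2 (1.93 and 1.70), Klrk1, which encodes NKG2D (1.38 and 1.85), Klri2 and Klra7 (2.27 and 1.47). Klrk1 was read in 57.9% and 57.5% of members and Klrc2 in 48.7% and 55.0%. Fewer members held Klrb1f (22.4% and 20.0%), Klra7 (22.4% and 17.5%), Klra1 (15.8% and 10.0%) and Klri2 (11.8% and 12.5%). The MC38 level of Klra1 rests on 18 UMIs in 4 members. The receptor gene Cd244 differed by 2.68 and 1.88. Klra genes are close copies of each other, so the level of a single one is uncertain.

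Secreted effectors followed. Ccl5, a chemokine of memory and cytotoxic cells, was at 6319 CPM in control members against 2486 in alpha-beta T cells and at 5986 against 2689 with MC38. NK cells held more of it, 12958 and 13107 CPM. Xcl1 (chr1:164931644-164935527, minus strand) was at 768 against 120 CPM and 325 against 123 CPM, log2 folds of 2.67 and 1.40. NK cells stood at 505 and 455 CPM. By summed level only the control members exceeded NK cells, with 561 CPM when their highest cell was left out. Xcl1 was read in 59.2% and 47.5% of members and in 39.5% and 37.2% of NK cells. Gzma (chr13:113093825-113100981, minus strand), a granule protease, was at 2294 against 566 and 3029 against 1311 CPM, far under the 9814 and 9954 CPM of NK cells. Car2, Emid1 and Arap3 completed the 15.

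Members with few Trdc UMIs stood apart in these genes. In members with 1 or 2 Trdc UMIs Gzma stood at 4659 and 6513 CPM, and in those with at least 3 at 1432 and 1478 CPM. With members of at least 3 Trdc UMIs alone, the MC38 log2 fold over alpha-beta T cells was 0.17 for Gzma (-0.02 to 0.36), 0.81 for Ccl5, 0.05 for Arap3 and -0.84 for Klri2, and the control log2 fold of Car2 was 0.63 (-1.30 to 2.06). With MC38 Klra1 stood at 2.91, Fcer1g 1.92, Cd7 1.56 and Xcl1 1.08. Tyrobp, the partner adaptor of many NK receptors, was at 768 and 883 CPM in members against 172 and 218 CPM in alpha-beta T cells and 2661 and 2353 CPM in NK cells. The NK marker list as a whole was higher in 5 of 6 measured genes.

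The 8 genes lower in members by rank included Ccr7, Cd6 and Cd5. Ccr7, the receptor that guides naive and central memory T cells into lymph nodes, was at 46.5 against 169 CPM and 40.1 against 168 CPM. Cd6 (28.3 against 95.5 and 12 against 118 CPM) and Cd5 (36.4 against 93.1 and 32.1 against 98.1 CPM), a pair of scavenger-family receptors that dampen T cell receptor signals, were lower as well, as were Themis, a T cell receptor signaling protein, and Igfbp4. Ifi27l2a, Capg and Cenpa completed the 8 genes. The cytokine receptor Il7r was at a like level in both T cell kinds, 277 against 322 and 301 against 346 CPM, and Il2rb was nearer to NK cells (447 and 441 CPM in members, 243 and 239 in alpha-beta T cells, 446 and 613 in NK cells). Cxcr6, a receptor of liver-resident lymphocytes, was at 410 and 221 CPM in members against 395 and 285 CPM.

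Effector programs were scored per cell with genes outside the rule. At least 2 UMIs over 12 type 1 genes (Tbx21, Eomes, Ifng, Klrd1, Klrc1, Klrk1, Gzma, Gzmb, Prf1, Xcl1, Cd160 and Il2rb) were found in 72 of 76 control members (94.7%, 87.1 to 98.5) and 36 of 40 MC38 members (90%, 76.3 to 97.2). After thinning to 1000 UMIs the shares were 67.6% and 62.0%, against 31.5% and 26.8% of alpha-beta T cells, 98.2% and 95.6% of NK cells and 1.24% and 0.509% of B cells. Type 1 UMIs per member ran over 0, 16.5 and 270 in the control and 0, 16 and 311 with MC38, so the libraries overlapped fully. Without thinning, coreceptor-negative cells held at least 2 type 1 UMIs in 91.6% and 69.1% and alpha-beta T cells in 76.4% and 61.4%. Ifng itself was read in 26.3% and 20.0% of members, against 18.5% and 11.8% of alpha-beta T cells (25.7% and 15.6% of CD4 T cells), 28.1% and 14.0% of coreceptor-negative cells, 27.6% and 26.1% of NK cells and 1.0% and 0.394% of B cells. Tbx21 or Eomes, the transcription factors of the program, were read in 61.8% and 47.5% of members. The shares were 36.0% and 25.6% of alpha-beta T cells, 44.7% and 30.5% of coreceptor-negative cells and 81.5% and 73.5% of NK cells.

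The type 17 program was rare. At least 2 UMIs over 11 type 17 genes (among them Il17a, Il17f, Il23r, Blk, Cd163l1, Sox13 and Ccr6) were found in 2 of 76 control members (2.63%, 0.320 to 9.18) and 5 of 40 MC38 members (12.5%, 4.19 to 26.8), and 3 members of each library held exactly 1 such UMI. Thinned to 1000 UMIs the shares were 1.21% and 6.15%, against 0.0186% and 0.0707% of alpha-beta T cells and 0 in NK cells. Unthinned, coreceptor-negative cells held at least 2 type 17 UMIs in 0.582% and 2.88%, so their share was also higher with MC38. The unthinned shares were 0.988% and 2.78% of CD4 T cells and 1.06% and 0.571% of CD8 T cells. B cells are no background for this list, since they express Blk and Ccr6. The counting intervals of the libraries overlap at these numbers of cells.

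**Figure D3:**
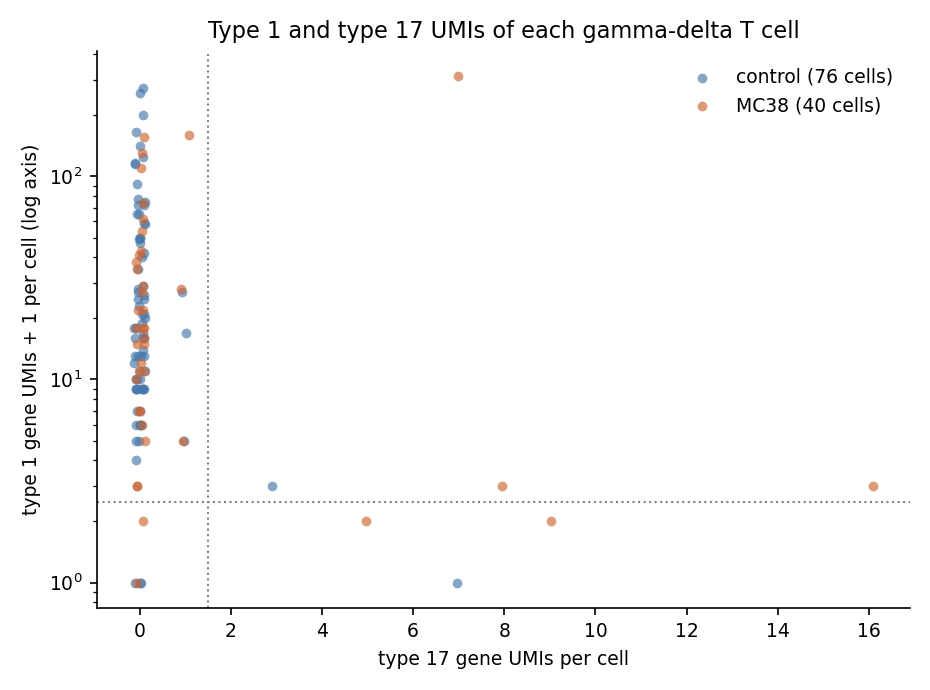
Type 17 UMIs (horizontal) against type 1 UMIs plus 1 (vertical, log axis) of each member, 1 point per cell colored by library and shifted slightly sideways, with dotted lines between 1 and 2 UMIs of either program. Most members lie at 0 type 17 UMIs, and 2 control and 5 MC38 members lie past the vertical line.

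All 7 cells held Cd163l1 (chr7:140218267-140231145, plus strand), a scavenger receptor gene of type 17 gamma-delta T cells, and no other member held a UMI of it. The 5 MC38 cells held 8, 4, 5, 5 and 2 Cd163l1 UMIs and the control cells 3 and 2. Il17a (2 UMIs) and Il17f (1 UMI) came from 1 MC38 cell, which also held a Tcrg-V4 UMI. Of genes that did not choose these 7 cells, named after their values were seen, Maf, Il7r, Tmem176a, Ccr2 and Cxcr6 were read in all 7, and Cd27 and Tbx21 in none. Among the other 74 control and 35 MC38 members, Maf was read in 15 and 5, Tmem176a in 13 and 6, Ccr2 in 23 and 10, Il7r in 36 and 19 and Cxcr6 in 47 and 14. Cd27 was read in 44 and 22 of them and Tbx21 in 41 and 16. Of the 7 cells, 1 MC38 cell of 15226 UMIs also held 311 type 1 UMIs, of which 221 were Gzma.

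For MC38 against control, 4808 genes had at least 20 UMIs in the members of both libraries together. Of these, 237 (4.93%) were at least 2-fold higher with MC38 and 278 (5.78%) at least 2-fold lower. The 548 genes that reached 50 UMIs in both had a median log2 fold of 0.13, and scaling to that median gave 170 higher and 349 lower. Over the 6962 genes with at least 10 UMIs, the filter used for gene lists, 490 (7.04%) were 2-fold higher and 646 (9.28%) lower.

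Genes induced by type I interferon, the antiviral cytokine family, had the lowest median among the gene lists other than cell type markers. Of 15 measured genes of the list, 10 were at least 2-fold lower with MC38 and none higher, with a median log2 fold of -1.33 (11 of 15 and -1.46 when scaled to the median gene). The 3 genes without a UMI in MC38 members enter at the floor of 3 UMIs described below, and among members with at most 10% mitochondrial UMIs the median was -1.36. Isg15 (chr4:156199424-156200818, minus strand), a ubiquitin-like antiviral protein, had 134 UMIs in 31 of 76 control members and 2 UMIs in 2 of 40 MC38 members, 271 against 8.02 CPM (log2 fold -5.08, -8.14 to -3.20). Ifit1 (chr19:34640871-34650009, plus strand), which binds foreign RNA, had 22 UMIs in 13 control members and 0 with MC38, at least 3.70-fold lower when the MC38 count is set to a floor of 3 UMIs over the library's members. Ifi27l2a had 122 and 16 UMIs (-1.94) and Bst2, which tethers budding viruses, 42 and 6 (-1.82). At the other end of the list, Irf7 and Stat2 each differed by -0.27.

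A single control cell weighed on these sums. It held 81 of the 134 Isg15 UMIs, 53 of the 89 Ifng UMIs and, named after its values were seen, 157 of the 162 Cxcl10 UMIs of control members, with 151 UMIs of the interferon list in all. Without that cell alone, Isg15 was at 109 CPM in control members against 8.02 CPM with MC38. With the highest member of each library left out, Isg15 stood at -4.72. The list then had 6 of 13 measured genes 2-fold lower, with a median of -0.92. With all members kept and cells thinned to 1000 UMIs, Isg15 stood at -1.66. MC38 members held only 2 Isg15 UMIs before thinning, and a count of 0 is set to the floor of 3 UMIs. The thinned fold thus rests on few reads and cannot give the size of the difference. Per cell, the list gave a lowest, median and highest of 0, 5 and 151 UMIs in control members and 0, 2 and 9 with MC38, so the groups overlapped at the low end. At least 5 UMIs were found in 53.9% and 17.5% of members. A UMI of the list was found in 72 (94.7%) and 33 (82.5%) members, and in 55.4% and 33.8% once each cell was thinned to 1000 UMIs.

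**Figure D4:**
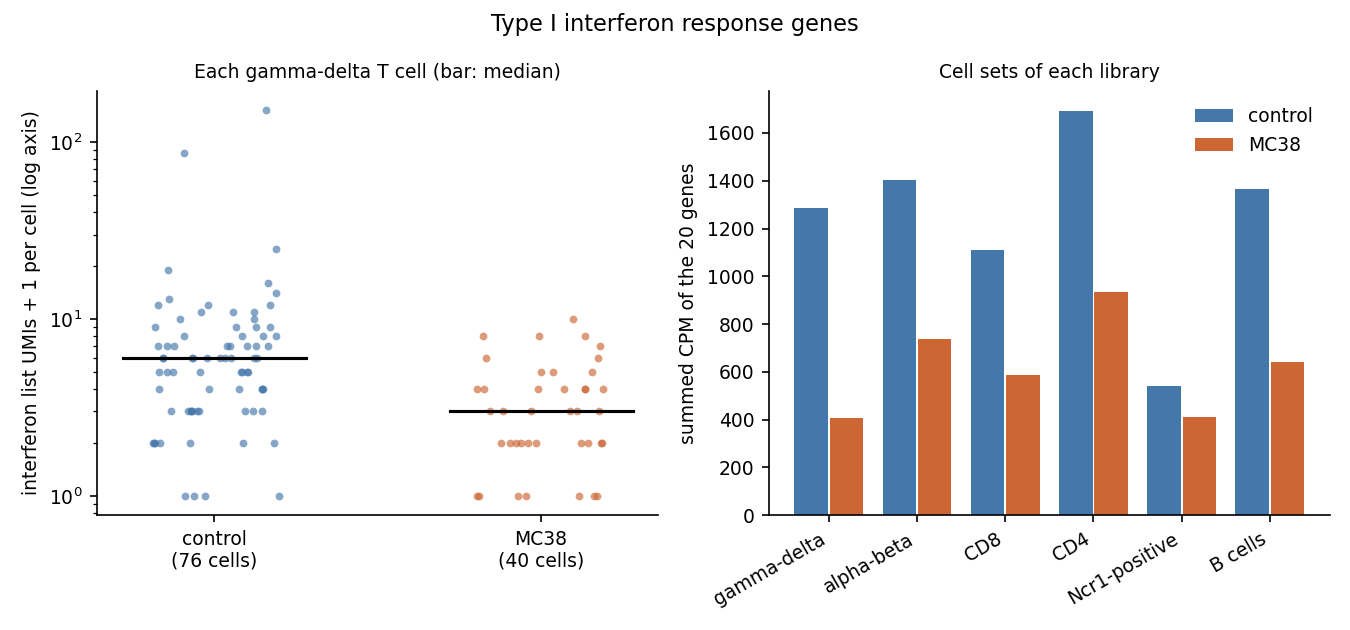
UMIs of the type I interferon list plus 1 per member on a log axis (left, 1 point per cell, bar at the median) and the summed CPM of its 20 genes in members and other cell sets of each library (right). Control members have a median of 5 UMIs and MC38 members of 2, and the MC38 bar is the lower one in each cell set drawn, 405 against 1284 CPM in members.

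Interferon genes were also lower with MC38 in other cells. The same list had 13 of 20 measured genes 2-fold lower in alpha-beta T cells (median -1.20, summed level 1405 against 736 CPM), where 3.84% of all genes with at least 10 UMIs were. It had 11 of 20 lower in B cells (-1.02), against 4.45% of all genes, and 5 of 19 in NK cells (-0.47), against 5.26%. Members summed to 1284 against 405 CPM, or 991 against 379 CPM without the highest member of each library. The size of the difference was not tested between cell types.

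Of 14 genes of the list with a promoter entry, 9 held a short motif there. It is shown because 10 of the 15 measured genes of the list were lower with MC38. The genes with an entry and the measured genes are not the same set. The interferon-stimulated response element is read here as GAAANNGAAA or, on the other strand, TTTCNNTTTC, overlaps allowed, in windows of 250 bases before to 50 after each start site (RefSeq, GRCm38.p6). It was found in 9 of 15 promoters of list genes with an entry (60%), belonging to Isg15, Ifit1, Ifit3, Ifit3b, Rsad2, Oas1a, Oas3, Bst2 and Stat2, and in 1131 of all 32851 promoters (3.44%). Capitals mark the matches in 60 bases of Isg15 (chr4:156200850-156200909, minus strand), Ifit1 (chr19:34640779-34640838, plus), Ifit3 (chr19:34583382-34583441, plus) and Rsad2 (chr12:26456538-26456597, minus), each 5′ to 3′.
Isg15: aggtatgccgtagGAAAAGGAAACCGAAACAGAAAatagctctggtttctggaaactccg
Ifit1: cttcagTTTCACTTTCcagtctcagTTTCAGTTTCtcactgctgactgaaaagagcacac
Ifit3: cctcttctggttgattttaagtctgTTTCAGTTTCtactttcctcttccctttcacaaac
Rsad2: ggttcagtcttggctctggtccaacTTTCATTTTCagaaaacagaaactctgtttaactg
Of these genes Isg15 is covered above, and Ifit3 (15 UMIs against 0) and Rsad2 (13 against 0) were at least 2.52-fold and 2.18-fold lower. Without the control member highest in each, Ifit3 had 10 UMIs and Rsad2 7, with log2 folds against the floor of -0.77 and -0.25, both under 2-fold. Ifit3 and Ifit3b are close copies, so reads may be split between them. A match is a description of the letters in the window only.

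Xcl1, Socs2, Ccl4 and Nr4a3 were at least 2-fold lower with MC38 in members, and their values in alpha-beta T cells are set beside these below. Whether a difference differed between cell types was not tested. Xcl1 had 380 UMIs in 45 of 76 control members and 81 in 19 of 40 MC38 members (log2 fold -1.24, -1.61 to -0.89). The Xcl1 log2 fold was -0.95 without the highest member of each library, -0.88 without doublet calls and -0.74 without members with Trac. Without the control cell that held 106 Xcl1 UMIs, and no other cell left out, the levels were 561 and 325 CPM. CD4 T cells differed by -0.77 (-1.09 to -0.47) and CD8 T cells by 0.99 (0.72 to 1.26) in Xcl1, which sum to 0.03 over all alpha-beta T cells, and NK cells by -0.15. Socs2 (chr10:95385362-95417180, minus strand), an inhibitor of cytokine signaling, was at 111 against 12 CPM, with 55 and 3 UMIs (-3.21, -5.53 to -1.58, and -1.19 with Csf1r, Cd79a and Siglech UMIs allowed), against -0.13 in alpha-beta T cells. Ccl4, a chemokine of activated lymphocytes, had 258 and 34 UMIs (-1.93), against 2.27 in alpha-beta T cells. Of the 258 control UMIs 127 sat in 1 cell, and Ccl4 was read in 19.7% of control and 25.0% of MC38 members. Nr4a3, induced by receptor stimulation, had 23 UMIs in 8 control members and 0 with MC38, at least 3.86-fold lower, against a log2 fold of 0.91 in alpha-beta T cells. Once cells were thinned to 1000 UMIs the log2 fold of Nr4a3 was 0.19. MC38 members still had 0 UMIs of it, so that sign comes from the floor of 3 UMIs, and the fold rests on few reads.

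Of the type 1 and cytotoxic list 4 of 31 genes were 2-fold lower (Ccl4, Xcl1, Eomes and Ifng) and none higher, with a median of -0.07. Eomes was at 129 against 44.1 CPM (-1.55, -2.62 to -0.62). Ifng, the leading cytokine of the program, had 89 and 19 UMIs (-1.24), but 53 of the 89 sat in 1 control cell. Without that cell alone, control members stood at 73.7 CPM of Ifng against 76.2 CPM with MC38. With the highest member of each library left out, the log2 fold of Ifng was -0.25 (-1.22 to 0.66). Among the other genes of the list, log2 folds were 0.40 for Gzma (0.27 to 0.53), 0.05 for the granule protease gene Gzmb, 0.22 for Nkg7 and -0.08 for Ccl5. The remaining genes lower by rank were H2-T23, a nonclassical MHC class I gene whose product is a ligand of NKG2A (176 against 44.1 CPM in 50 and 10 cells, -1.99, with -0.73, -1.16 and -1.02 in alpha-beta T, NK and B cells), the sialyltransferase gene St3gal6 (-3.13, -5.45 to -1.50), Pydc3 of the interferon-inducible pyrin family (-2.78, -5.12 to -1.14), the transcription factor gene Sox4, Bfar, and Mfap1b. Mfap1b had 24 UMIs in the control and 0 with MC38, and reads may be split with its copy Mfap1a, so its count is uncertain.

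**Figure D5:**
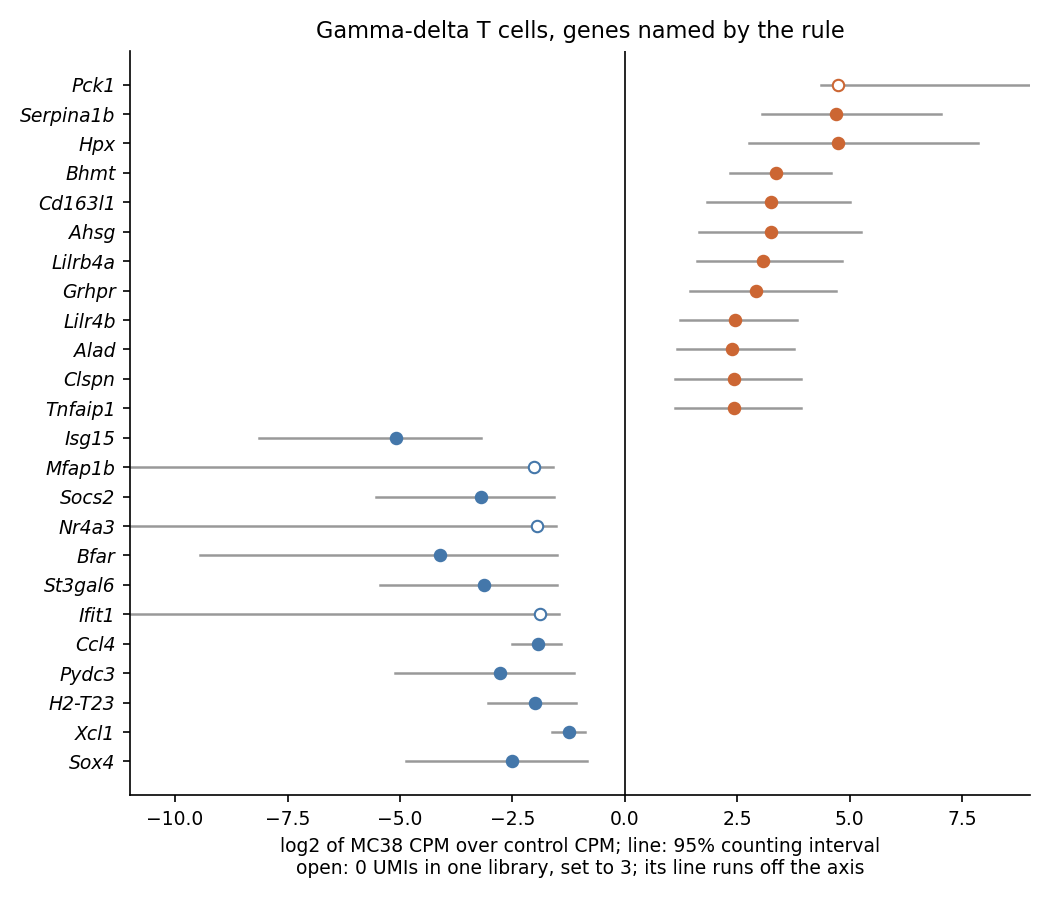
Log2 fold for MC38 over control members of the 24 genes named by rank, with 95% counting intervals. Open points mark genes with 0 UMIs in a library, set to 3, whose interval runs off the axis. The 12 lower genes are led by Isg15 and the 12 higher genes include several hepatocyte genes and Cd163l1.

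Among genes higher with MC38, Cd163l1 was the one by rank that belongs to a T cell program. It had 5 UMIs in 2 control members and 24 in 5 MC38 members, 10.1 against 96.3 CPM (log2 fold 3.25, 1.83 to 5.0). All of it lay in the 7 type 17 cells above, which were chosen in part by this gene. Cd163l1 was near 0 in B cells (0 and 0.0911 CPM) and at 1.85 and 2.0 CPM in alpha-beta T cells. Of the wider type 17 list, 3 of 14 genes were 2-fold higher and none lower (median 0.46, and 0.33 with 2 of 14 when scaled to the median gene). Blk, a Src-family kinase, was at 2.99 (0.66 to 6.26) and the membrane protein gene Tmem176a at 1.05.

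Hepatocyte RNA moved with the groups in members, B cells and alpha-beta T cells. Pck1 (chr2:173153048-173159273, plus strand), an enzyme of glucose synthesis in the liver, had 0 UMIs in control members and 40 with MC38, at least 26.5-fold higher, and B cells, which do not make it, stood at 2.82 and 131 CPM against 160 CPM in MC38 members. Serpina1b, the protease inhibitor of plasma (3 and 39 UMIs, log2 fold 4.69, 3.04 to 7.03), Hpx (2 and 27), Bhmt (9 and 47, 3.37), Ahsg (4 and 19) and Grhpr (5 and 19) are further liver genes by rank. All 12 measured hepatocyte markers were 2-fold higher (median 2.71), and their sum was 376 and 2564 CPM in members, 390 and 2989 in B cells and 323 and 1674 in alpha-beta T cells. Per member the markers gave 0, 1 and 48 UMIs in the control and 0, 6 and 118 with MC38. Monocyte and macrophage markers summed to 594 and 1264 CPM (B cells 2943 and 5972), with Csf1r and Ms4a7 at 0, and Lilrb4a (5 and 21 UMIs) and its copy Lilr4b (8 and 22) stood at 18.9 and 55.6 and at 8.46 and 21.5 CPM in B cells. Alad, an enzyme of heme synthesis (16.2 and 84.2 CPM), Clspn and Tnfaip1 complete the 12, and 10 of the 19 Clspn UMIs came from 1 MC38 cell.

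The other lists differed less between the libraries. Of glycolysis and hypoxia genes 3 of 16 were 2-fold higher (Tpi1 1.09, Slc2a1 1.57 and Bnip3 2.40, 0.35 to 4.95 from 3 and 8 UMIs) and none lower, with a median of 0.62 (2 of 16 and 0.49 when scaled to the median gene). Of cell cycle genes 3 of 17 were higher (Top2a 1.10, Mcm2 1.24 and Mcm4 1.49; median 0.60), and Hmgb2 was at -0.78. Without the highest member of each library Top2a stood at 0.52 and Mcm2 at 0.93. Dividing cells were few: Mki67 or Top2a were read in 10 control and 7 MC38 members, and the 2 highest cells held 71.9% of the 89 and 88.1% of the 84 UMIs. Of 5 measured inhibitory checkpoint genes none was 2-fold apart (median -0.09), among them Lag3 (0.31) and Tox (-0.60). Of lipid handling genes 5 of 11 were higher, led by Plin2 of lipid droplets (2.95) and Apoe (2.42), and both were also higher in B cells (26.4 and 237 CPM, 506 and 1802 CPM).

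Transcription factors of innate-like T cells had a median of -0.60, with Bcl11b, which maintains T cell identity, at 202 against 88.3 CPM (-1.20) and Nfil3 at 18.2 against 48.1 CPM (1.40). Of the T cell receptor signaling list, the costimulator gene Icos was at 68.7 against 20.1 CPM (-1.78) and Fcer1g at 0.80. Cxcr6 was at -0.90 (-1.35 to -0.46), and Ccr9, a gut-homing receptor, had 16 UMIs and 1, with a log2 fold of -3.01 (-8.40 to -0.32). Effector and repair cytokines had 1 of 9 higher (Lta 2.57, from 4 and 12 UMIs) and 3 lower, with Tnfsf14 at 15 and 0 UMIs, at least 2.52-fold lower. Cytokine receptors (median -0.02), chemokine receptors (-0.04), naive genes (-0.21, with Satb1 at -1.06), heat shock genes (0.22), immediate-early genes (-0.11), apoptosis genes (0.12) and feedback genes (0.38, with Socs3 at 1.80 from 8 and 14 UMIs) had no more than 2 genes past 2-fold in either direction.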

How the data were processed

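The authors deposited, per the file headers, raw UMI counts for 28692 genes in every barcode of both libraries. Tools in the submitters' processing notes are Cell Ranger 2.2, STAR, bcl2fastq, R 3.6.0 and Seurat 2.3.4, with GRCm38.p6, and the matrix header names software 3.0.2. Per the labels' protocols the kit was a 5′ kit, and the treatment of reads that map to several genes is not stated.

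The members and the gene lists were chosen with earlier results of these data known. Doublets were called per library with scanpy 1.11.5 and marked, not removed. UMIs were summed per library and cell set in Python 3.11.15 (numpy 2.4.6, scipy 1.17.1, pandas 2.3.3) and scaled to the total of that set (CPM). Folds carry exact conditional Poisson 95% intervals and shares exact binomial 95% intervals, for counting error only. A gene at 0 was set to 3 UMIs over the library's members. Thinning to 1000 UMIs used the exact expectation for shares of cells, or the mean of 20 draws where the rule was reapplied. Gene folds and counts of genes after thinning came from a single random draw. The scripts were tested on simulated data.

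Genes were named by rank. A gene needed at least 20 UMIs in both libraries together, detection in at least 10% of members of the library where it was higher, and there at least 0.5 of the CPM of all kept barcodes. Receptor segments, ribosomal, mitochondrial and hemoglobin genes, unnamed models and markers of other cells were left out. The first 12 in each direction by the interval end nearest 0 were named, and 15 higher and 8 lower against alpha-beta T cells. From each list, those at either end with at least 10 UMIs could be named, and any gene of the receptor, type 1, type 17 and checkpoint lists. Limits on mitochondrial share, on Trdc, CD3 and Trac UMIs and on gene counts, and the scaling, were varied.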

Additional observations from a re-analysis of the deposited data

How the results depend on the processing

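No paired analysis was possible because each group has 1 library. The ratio of the shares of T-lineage barcodes stayed between 1.34 and 1.79 over 11 alternatives, and the type 17 share was higher with MC38 by 4.94 to 14.5 percentage points over 13 (9.87 as reported). The type 1 share was lower by 4.74 points as reported (a difference of -4.74), and differed by -8.33 at a mitochondrial limit of 10%, by -5.61 after thinning and by 2.76 with at least 1 UMI. The gap was wider with at least 3 UMIs, at 93.4% of control and 80.0% of MC38 members. Counts of genes past 2-fold followed the filters. Against 237 higher and 278 lower genes, a mitochondrial limit of 10% gave 136 and 146, thinning 29 and 68, at least 50 UMIs 40 and 57, and at least 1 UMI 1099 and 990. A mitochondrial limit of 30% gave 369 higher, and allowing Csf1r, Cd79a and Siglech UMIs gave 484. Against 77 genes higher than in alpha-beta T cells, thinning gave 32 and at least 50 UMIs gave 36. Of 356 values of genes for MC38 over control, 333 stayed within the counting interval or within 1 log2 unit of the reported value, 22 moved further and 1 changed sign. That was Nr4a3, at 0.19 after thinning, where the floor of 3 UMIs stands in for 0 MC38 UMIs. Of 505 values against alpha-beta T cells, 425 held, 78 moved and 2 changed sign with at least 2 Trdc UMIs (Klri2 -0.96 and Arap3 -0.06 with MC38). Of 88 list medians, 79 kept their sign. The exceptions were the type 17 list at a mitochondrial limit of 10% (-0.10), cell cycle with Csf1r, Cd79a and Siglech UMIs allowed (-0.85), checkpoints at a limit of 30% (0.13) and lipid handling (-0.19 as reported), at 0.96 with a limit of 10%, 0.56 with at least 2 Trdc UMIs, 0.57 with at least 3 CD3 UMIs, 0.53 without Trac, 0.50 with a gamma constant UMI required and 2.42 with at least 30 UMIs per gene. The cause was not tested. Allowing those 3 genes, requiring a gamma constant UMI, leaving out hemoglobin-rich members or a gene's highest member, and scaling without mitochondrial, hepatocyte and erythroid genes were chosen after seeing the data.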

Other observations

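Single members held most reads of some genes, named here after their values were seen. In 1 control member, 6491 hemoglobin UMIs sat beside 1 Trdc and 2 CD3 UMIs, and erythroid markers summed to 13211 CPM in control members against 136 CPM with MC38. In 1 MC38 member all 30 Hspa1a and all 23 Hspa1b UMIs of that library were found, both genes of the HSP70 chaperone and close copies of each other, together with 20 of the 34 Ccl4 UMIs. Another MC38 member of 7998 UMIs held 32 of 45 Ccl6, 21 of 28 Ifitm1 and 29 of 38 Ccl3 UMIs beside 5 Trdc, 3 gamma constant and 4 CD3 UMIs. Of 12 Tnfrsf4 UMIs, the costimulatory receptor OX40, 11 came from 1 MC38 member. Xcl1 reached 106 UMIs in a control member with 21 Trdc UMIs and no gamma constant UMI.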
